A study of Saccharomyces cerevisiae with 13 samples.

Results

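The aminoacyl-tRNA synthetase genes of Saccharomyces cerevisiae were the subject of these measurements. They were taken as a fixed list of 35 genes, matched by systematic name in the gene column of the count tables, of 5694 genes listed in any of the tables. All 35 were found, and none was chosen by its values. By their known site of action, 21 encode enzymes of the cytosol and 14 encode enzymes used only in mitochondria. Among the 21, the genes HTS1, VAS1, ALA1, GRS1 and CRS1 are known to supply the cytosol and the mitochondria from 1 gene each.

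An aminoacyl-tRNA synthetase joins an amino acid to its tRNA, and each amino acid has its own enzyme. HTS1 is the enzyme for histidine, the amino acid whose supply the treatment limits. The drug aminotriazole (3-AT) inhibits the enzyme encoded by HIS3, so that cells in medium without histidine run short of histidine, and uncharged tRNA activates the kinase Gcn2, whose regulatory domain resembles a histidyl-tRNA synthetase. Gcn2 in turn raises translation of Gcn4, a transcription factor that binds the sequence TGACTCA.

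The rich-medium libraries were labelled as strain BY4742, with the genotype MATα his3Δ1 leu2Δ0 lys2Δ0 ura3Δ0, grown in YPD at 30 °C. The 3-AT libraries were labelled as strain S288C, grown at 30 °C in synthetic complete medium lacking histidine with 100 mM 3-AT. Each condition had 2 biological replicates of mRNA-seq, monosome-seq (the mRNA fragments that single ribosomes protect) and disome-seq (the longer fragments that 2 stacked ribosomes protect). A further rich-medium library, labelled as a negative control, held footprints of single ribosomes taken from transcripts bound by 2 ribosomes. Strain, medium and drug changed together, so their effects cannot be told apart, and every comparison called 3-AT versus rich below is a comparison of all 3 at once. The strain labels went against the counts of the genes deleted in BY4742. URA3 had 138 and 181 mRNA counts in the libraries labelled BY4742 against 22 and 14 in those labelled S288C. LYS2 had 0 counts in all 12 libraries and 62 footprints in the control library, and LEU2 had 0 in all of these. HIS3, of which the allele his3Δ1 leaves a part, had 149 and 240 mRNA counts in the libraries labelled BY4742, 934 and 578 in those labelled S288C and 49 footprints in the control library. For that reason strains are given below only as labels.

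The tables held between 544499 and 2836320 counts per mRNA-seq library, between 230583 and 800994 per monosome-seq library and between 18790 and 47391 per disome-seq library. The 35 genes took 1.86% and 1.84% of the counts in rich-medium mRNA-seq and 1.49% and 1.46% in 3-AT. They took 2.3% and 2.31% of monosome-seq counts in rich medium, against 1.44% and 1.62% in 3-AT. In disome-seq their share was 1.7% and 1.91% in rich medium and 1.26% and 1.08% in 3-AT. In each of these assays the 2 rich-medium libraries thus held a larger share than the 2 3-AT libraries. The mitochondrial genes took between 0.00946% and 0.0213% of disome-seq counts, or 2 to 9 counts per library, so that almost all disome values below are those of cytosolic enzymes. Every stretch of 28 nt in the coding sequences of these genes occurred in no other annotated coding sequence, GRS1 and its paralog GRS2 included. Monosome-seq also counted shorter footprints, and stretches of those lengths were not checked.

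The 400 bases before each start codon were searched for the Gcn4 sequence TGACTCA on either strand, because Gcn4 is the factor known to act in histidine starvation. It was present before 3 of the 35 genes (8.57%), against 3.5% of 5689 promoters. The 3 promoters held only 2 separate sites, since DED81, for asparagine, and YHR020W, for proline, are transcribed away from each other and share 1 of them. The shorter sequence TGACTC, which is contained in the longer one, was present on either strand before 12 of the 35 genes (34.3%), against 10.6% of all promoters. Of the 12, 10 were cytosolic genes. All 3 genes with the longer sequence are shown, and 3 with the shorter one as examples, those of ILS1, THS1 and CRS1, whose footprint changes are described below. The sequences run 5′ to 3′ on the strand of the gene (R64 assembly, RefSeq), with the match in capitals.
DED81: agacattcagTGACTCAagcatcgctt
YHR020W: aagcgatgctTGAGTCActgaatgtct
YDR341C: aagtgtctaaTGAGTCAgttatttctt
ILS1: gaaacaatgaTGACTCttaagcatga
THS1: actgtttaaaTGACTCttaccttgtg
CRS1: tcatcgcgaaGAGTCAaaagacatta
The stretch of DED81 and YHR020W is chrVIII:143803-143829, read on its opposite strands. That of YDR341C lies at chrIV:1153811-1153837 on the minus strand, and its match begins 201 bases before the start codon. The ILS1 stretch is chrII:84348-84373 (minus strand), the THS1 stretch chrIX:212285-212310 (plus strand) and the CRS1 stretch chrXIV:182779-182804 (plus strand). A match says only that these letters are in the window.

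The level of each gene was given as counts per 1000000 counts (RPM) after scaling between libraries by edgeR's TMM factors, divided by the length of the coding sequence in kilobases. In rich medium the mRNA of the 21 cytosolic genes ranged from 211 RPM per kb for CRS1, the cysteine enzyme, to 967 RPM per kb for SES1, the serine enzyme, with a median of 411. The 14 mitochondrial genes ranged from 15.5 RPM per kb for ISM1 to 59.5 for MSK1, with a median of 28.0. The lowest cytosolic gene thus lay above the highest mitochondrial gene. HTS1 had 297 ± 5.32 RPM per kb (SD, n = 2), the 19th level of the 35, next to MES1 with 297 ± 8.76 and CDC60 with 268 ± 4.19. HTS1 and MES1 did not differ beyond their spread.

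**Figure D1:**
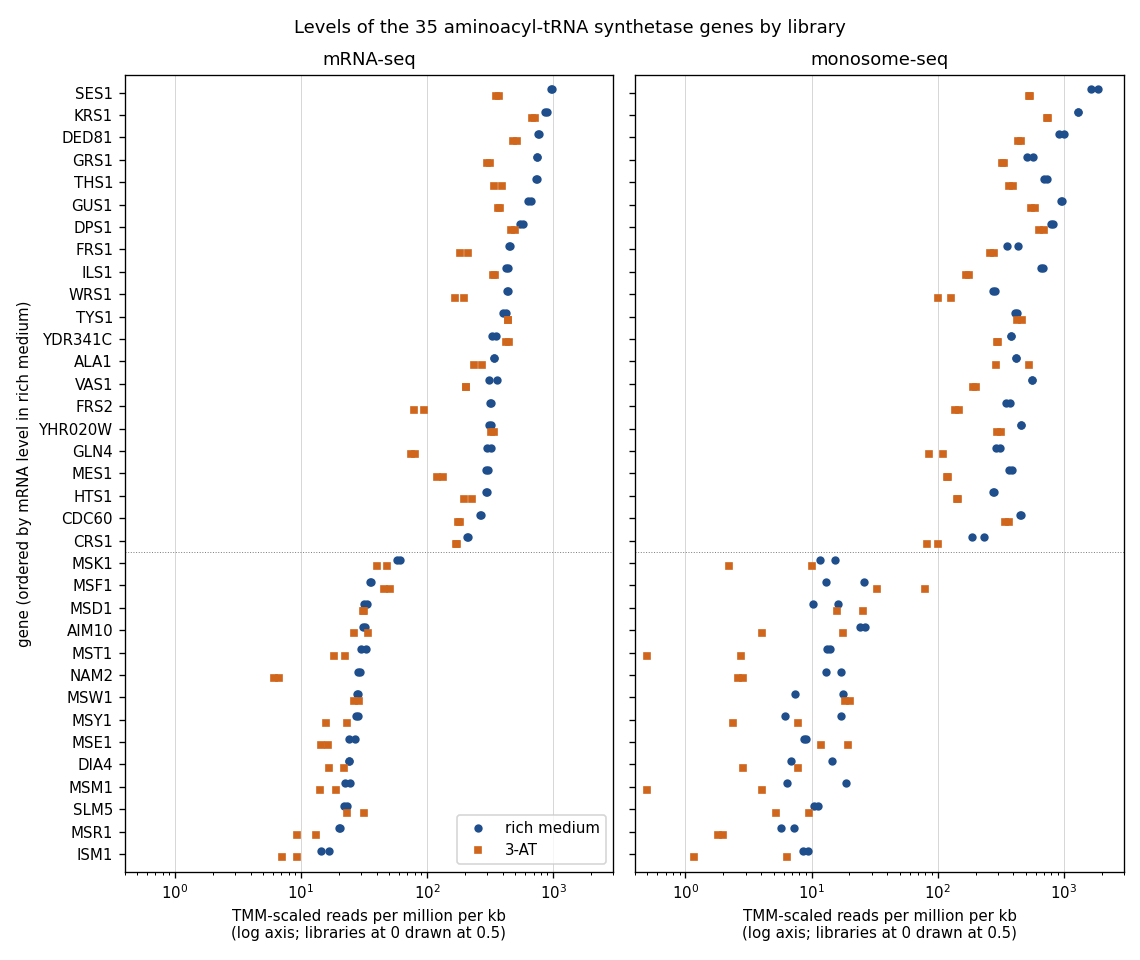
Levels of the 35 genes in each library of mRNA-seq and monosome-seq, as TMM-scaled RPM per kb of coding sequence on a log axis. Circles are the 2 rich-medium libraries and squares the 2 3-AT libraries, genes are ordered by mRNA level in rich medium, and the dotted line parts the 21 cytosolic genes from the 14 mitochondrial genes, whose highest mRNA level was 59.5 against a lowest of 211 above the line.

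Monosome counts per mRNA count, each as a share of its library, had a higher median in the cytosolic than in the mitochondrial genes, but the classes overlapped. On the log2 scale this ratio had a median of 0.31 over the cytosolic genes in rich medium, with SES1 highest at 0.865 and the tryptophan enzyme WRS1 lowest at -0.615 (range over 21 genes). The mitochondrial median was -1.16, with values between -2.14 for MSK1 and -0.32 for AIM10. The median of all 5256 genes with counts in both assays was -0.64. In 3-AT the medians were 0.03 for the cytosolic genes, -1.68 for the mitochondrial genes and -0.54 for all genes, with the cytosolic genes ILS1, CRS1, WRS1, HTS1 and YDR341C below the latter. In rich medium all 21 cytosolic genes lay above the median of all genes, and in 3-AT 16 of them did. These ratios are a description without a test.

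With 3-AT, mRNA of most of the synthetase genes was lower. At an adjusted p under 0.05 in edgeR's quasi-likelihood test over 5290 genes, 25 of the 35 were lower and 2 were higher, where 37.7% of all tested genes were called in each direction. The median log2 change was -0.57 over the 35 genes and 0.01 over all genes. Scaled by library totals in place of TMM, which raised the median of all genes to 0.33, 14 were lower and 5 higher, against 27.5% and 48.3% of all genes. A further alternative took the uniquely mapped reads listed for each library as library sizes. The table totals exceeded these in 6 of the 12 libraries, 2 of mRNA-seq and 4 of monosome-seq, so they are not the depth of these counts, and values under them are given beside those of all genes. All 35 genes were then lower, as were 84.4% of all genes, with 5.99% higher. In whole-culture RNA a lower value can come from less of that mRNA per cell or from fewer cells that make it, which cannot be told apart. Of the 21 cytosolic genes 18 were lower, and of the 14 mitochondrial genes 7.

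HTS1 (YPR033C, chromosome XVI, 637379 to 639019, minus strand) mRNA was measured at 480.3 and 493 RPM in rich medium and at 372 and 320.4 RPM in 3-AT. Its 2 groups did not overlap, and the log2 change was -0.47 ± 0.09 (SE, n = 2 per group; edgeR adjusted p = 3.1e-07). Scaled by library totals the change was -0.15 and did not pass (adjusted p = 0.093).

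The largest fall was that of NAM2, the mitochondrial leucine enzyme, which also takes part in splicing of mitochondrial introns. NAM2 (YLR382C) had 76.5 and 78.7 RPM in rich medium and 18.1 and 16.4 RPM in 3-AT (log2 change -2.15 ± 0.24, edgeR adjusted p = 3.9e-15). GLN4 (YOR168W), the glutamine enzyme, went from 779 and 721 RPM to 195 and 182 RPM (log2 change -1.98 ± 0.09, adjusted p = 4.3e-44). In both genes the 3-AT libraries lay at about the same level as each other and far under the rich-medium libraries.

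FRS2 (YFL022C), the alpha subunit of the cytosolic phenylalanine enzyme, fell from 486 and 474 RPM to 144 and 118 RPM (log2 change -1.85 ± 0.10, edgeR adjusted p = 6.5e-36). FRS1 (YLR060W), the beta subunit of the same enzyme, was at 803 and 812 RPM in rich medium and at 379 and 327 RPM in 3-AT, a log2 change of -1.18 ± 0.08. The 95% confidence intervals of the 2 subunits, -2.05 to -1.64 and -1.34 to -1.02, did not overlap, and the difference itself was not tested. SES1 (YDR023W) fell from 1333 and 1353 RPM to 488 and 519 RPM (log2 change -1.42 ± 0.07, adjusted p = 1.4e-39).

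YDR341C, the cytosolic arginine enzyme, was 1 of the 2 genes that rose. It had 603 and 645 RPM in rich medium and 766 and 813 RPM in 3-AT (log2 change 0.33 ± 0.07, edgeR adjusted p = 1.8e-05). The other was MSF1 (YPR047W), the mitochondrial phenylalanine enzyme, with 49.4 and 50.3 RPM in rich medium and 63.8 and 72.3 RPM in 3-AT (log2 change 0.43 ± 0.18, adjusted p = 0.024). Both genes kept their 2 groups apart, but the call of MSF1 did not pass without rich-medium replicate 1 (adjusted p = 0.05), without 3-AT replicate 1 (adjusted p = 0.051) or without 3-AT replicate 2 (adjusted p = 0.14). Both changes turned negative when uniquely mapped reads set the scale, at -1.35 for YDR341C and -1.25 for MSF1. DED81 and YHR020W, which share a promoter, gave log2 changes of -0.62 ± 0.07 (called lower) and 0.07 ± 0.07 (not called).

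Monosome footprints of most synthetase genes were lower in 3-AT as well. The filter on low counts left 26 of the 35 genes, all 21 cytosolic and 5 mitochondrial. Of these, 21 were lower and 1 was higher, against 31.7% called lower and 33.8% called higher of 4169 genes tested. The median log2 change was -0.93 over the members tested and 0.03 over all genes. Library totals, which moved the median of all genes to 0.315, gave 16 lower and 2 higher, against 24.6% and 40.5%. Of the 26, NAM2 and ISM1 passed the filter only through the rich-medium libraries, where they were higher. By uniquely mapped reads 18 were lower and 1 higher, against 28.9% and 35.6% of all genes. The genes not called were ALA1, TYS1, MSD1 and ISM1.

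HTS1 monosome footprints were at 457 and 456 RPM in rich medium and at 238 and 232 RPM in 3-AT. The replicates of each medium were close together and the log2 change was -0.95 ± 0.15 (SE, n = 2 per group; edgeR adjusted p = 1.4e-06). ILS1 (YBL076C), the isoleucine enzyme, had 2115 and 2191 RPM in rich medium and 540.1 and 576 RPM in 3-AT, which was the second largest fall of those tested (log2 change -1.95 ± 0.11, adjusted p = 7e-16). Its mRNA changed by -0.34 on the same scale.

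NAM2 was lowest again, with 35.0 and 45.9 RPM in rich medium and 7.01 and 7.73 RPM in 3-AT (log2 change -2.39 ± 0.59, edgeR adjusted p = 0.0007). These 3-AT values rested on 2 counts in each library, and NAM2 passed the filter only through the rich-medium libraries. SES1 went from 2617 and 2278 RPM to 750.5 and 735 RPM (log2 change -1.72 ± 0.11, adjusted p = 1.1e-14). MES1 (YGR264C), the methionine enzyme, went from 882 and 834 RPM to 267 and 271 RPM (log2 change -1.68 ± 0.14, adjusted p = 2.1e-12). None of these genes had groups that overlapped.

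MSF1 was the only synthetase gene called higher in monosome footprints, at 18.2 and 36.7 RPM in rich medium and 112 and 46.4 RPM in 3-AT (log2 change 1.61 ± 0.39, edgeR adjusted p = 0.00071). Its replicates differed widely. The change was 0.78 without 3-AT replicate 1 (adjusted p = 0.23) and 1.08 without rich-medium replicate 1 (adjusted p = 0.11). TYS1, at 506 and 489 RPM in rich medium and 508.5 and 549 RPM in 3-AT, was not called. ALA1 (YOR335C), the alanine enzyme, had 1204 and 1216 RPM in rich medium but 835 and 1531 RPM in 3-AT. Its groups overlapped.

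Disome footprints of the lengths counted, 55 to 65 nt, were present for all 21 cytosolic genes in both rich-medium libraries. The authors also describe disome footprints shorter than this window, whose proportion they found to be larger in 3-AT. Such footprints are missing from all disome values here. In 3-AT, 20 of the 21 had a count in each library. The filter left 19 genes, all cytosolic, and WRS1, CRS1 and the 14 mitochondrial genes were not tested. Of the 19, 13 were lower in 3-AT and 0 were higher, against 43.8% called lower and 37.2% called higher of 624 genes, and this direction flipped to 12 higher and 0 lower when uniquely mapped reads set the scale, where 64.4% of all genes were higher, 0.962% lower and the median of all genes was 4.35 against 2.68 for the members. HTS1, ILS1, DED81, SES1, FRS2 and MES1 passed the filter only through the rich-medium libraries and so had to be lower in 3-AT, which leaves 7 lower of 13 genes. The share of all genes under that restriction was not computed. Without a filter 13 of the 28 members tested were lower, where 520 of 4595 genes were lower and 325 higher. The count of 0 higher was also 0 with DESeq2 and at an unadjusted p under 0.05, and 1 when either 3-AT replicate was left out. Library totals, which moved the median of all genes from -0.143 to 0.465, gave 9 lower and 1 higher, against 37.5% and 43.9%. The median log2 change of the 19 was -1.80, also with MES1 set to the bound given below, and it carries the same selection. Without 3-AT replicate 2 the count of lower genes was 7.

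HTS1 had 19 and 24 disome counts in rich medium and 3 and 1 in 3-AT, which is 735 and 1056 RPM against 153 and 59.2 RPM. The log2 change was -2.96 ± 0.69 (SE, n = 2 per group; edgeR adjusted p = 4.4e-05), with a 95% confidence interval of -4.32 to -1.60. Since HTS1 passed the filter only through the rich-medium libraries, the direction of this test was fixed beforehand. Without a filter the change was -3.19 (adjusted p = 0.00026), and by uniquely mapped reads it was 1.32. The 4 counts in 3-AT set the width of this interval.

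MES1 had 42 and 32 disome counts in rich medium and 0 in both 3-AT libraries. Taking 3 counts over the 2 libraries together as the limit that 0 allows, its disome RPM was at least 18.5-fold lower in 3-AT (edgeR adjusted p = 7.3e-10). Since MES1 passed the filter only through the rich-medium libraries, the direction of this test was fixed beforehand. MES1 was the only cytosolic synthetase gene without a disome count in 3-AT, while its monosome counts there were 76 and 70.

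ILS1 had 89 and 38 disome counts in rich medium and 3 and 5 in 3-AT (log2 change -3.51 ± 0.58, edgeR adjusted p = 9.9e-09). DED81 (YHR019C) had 30 and 23 counts in rich medium and 1 and 4 in 3-AT (log2 change -2.93 ± 0.69, adjusted p = 4.4e-05, and -1.84 without 3-AT replicate 1). Both genes passed the filter only through the rich-medium libraries, which fixed the direction of their tests beforehand. By uniquely mapped reads their changes turned to 1.15 and 1.45. THS1 (YIL078W), the threonine enzyme, stood at the other end, with 54 and 44 counts in rich medium and 63 and 48 in 3-AT out of smaller libraries. Scaled, this was 2088 and 1936 RPM against 3209 and 2842 RPM, groups that did not overlap, but the log2 change of 0.59 ± 0.39 did not pass (adjusted p = 0.16).

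**Figure D2:**
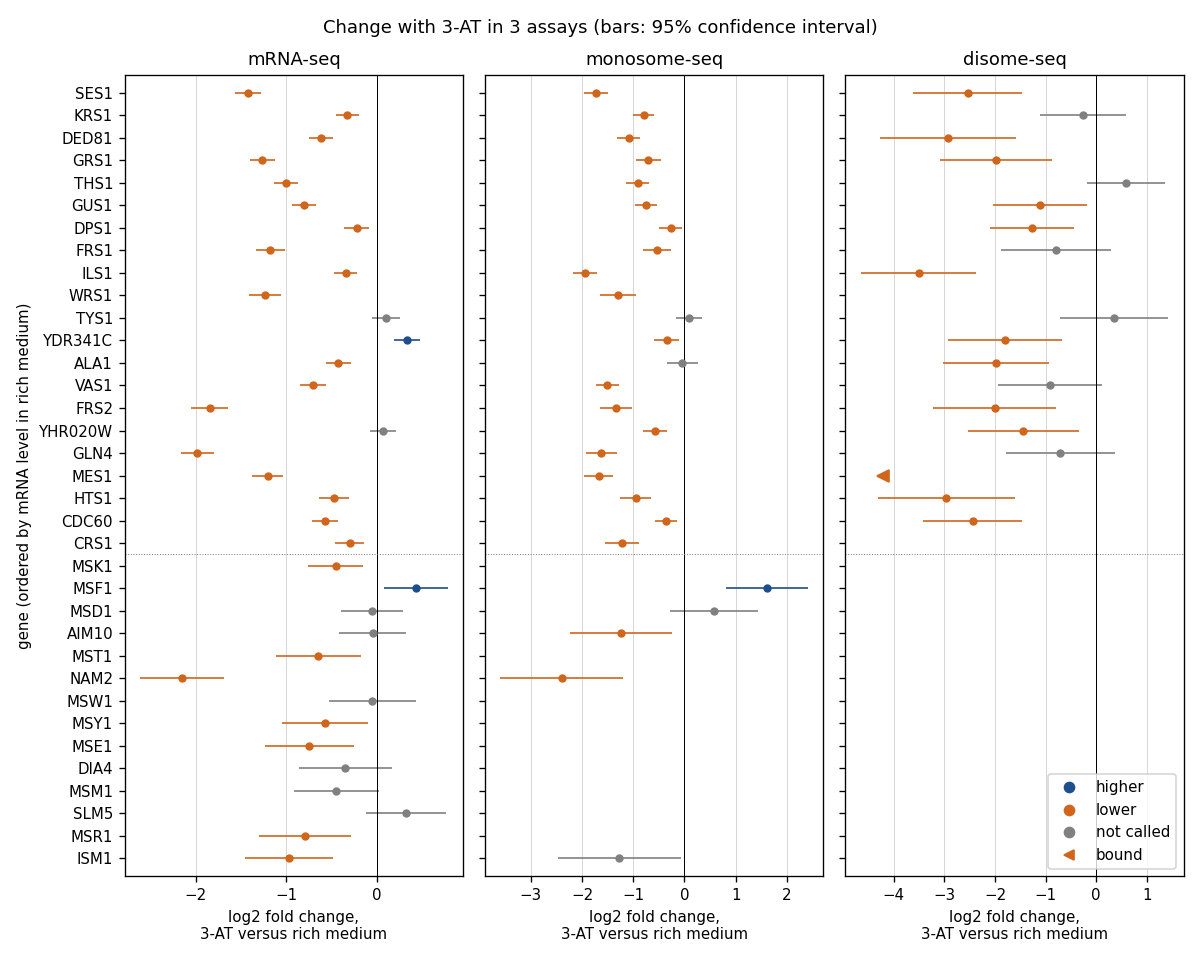
Log2 fold change between 3-AT and rich medium in mRNA-seq, monosome-seq and disome-seq for each synthetase gene that was tested, with 95% confidence intervals and colours for genes called higher, called lower or not called at an adjusted p of 0.05. The triangle is the bound for MES1, which had 0 disome counts in 3-AT. With TMM scaling most points lie left of 0 in all 3 panels. Called lower were 25, 21 and 13 genes, against 37.7%, 31.7% and 43.8% of all genes tested. Of the 13, 6 passed the filter only through the rich-medium libraries and so had to be lower. Uniquely mapped reads turned the disome panel to 12 higher and 0 lower, where 64.4% of all genes were higher.

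Whether footprints changed beyond the mRNA was tested as the change of the monosome to mRNA ratio, with the 8 libraries of both assays in 1 fit. All 35 genes passed the filter there, the mitochondrial ones mainly through their mRNA counts. The ratio was lower in 3-AT for 9 genes, all cytosolic, and higher for 4, against 12.1% called lower and 16.9% called higher of 5160 genes, while uniquely mapped reads flipped the direction to 24 higher and 0 lower, where 80.8% of all genes were higher and 0.213% lower with a median of 1.90 against 1.45 for the members. The median was -0.36 over the members and 0.08 over all genes. By class it was -0.10 over the 21 cytosolic genes and -0.71 over the 14 mitochondrial genes. The mitochondrial genes together had only 77 and 60 monosome counts in the 2 3-AT libraries. That none of them was called lower therefore does not set the classes apart, and their values weigh on the median of the members.

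For HTS1 the log2 change of the ratio was -0.52 ± 0.18 (edgeR adjusted p = 0.021). That call did not pass without monosome rich-medium replicate 1 (adjusted p = 0.056), without monosome 3-AT replicate 2 (adjusted p = 0.09) or without mRNA 3-AT replicate 1 (adjusted p = 0.084). Of the genes called, ILS1 fell most, by 1.65 on the log2 scale (SE 0.14, adjusted p = 3.9e-26). The mitochondrial genes MST1 and MSM1 had values of -2.71 and -2.21 that did not pass (adjusted p = 0.06 and 0.056). CRS1 followed among the genes called with -0.96 ± 0.19 (adjusted p = 4.7e-06), VAS1 (YGR094W), the valine enzyme, with -0.84 ± 0.14 (adjusted p = 1e-07) and YDR341C with -0.72 ± 0.15 (adjusted p = 1.8e-05). YDR341C was thus higher in mRNA and lower in footprints per mRNA.

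The ratio rose for FRS1 (0.60 ± 0.16, edgeR adjusted p = 0.0013) and for GRS1, the glycine enzyme (0.52 ± 0.14, adjusted p = 0.0021). Neither passed without mRNA 3-AT replicate 2, with adjusted p of 0.065 and 0.054. It also rose for the mitochondrial genes MSE1, for glutamate (1.55 ± 0.61, adjusted p = 0.043), and MSF1 (1.15 ± 0.39, adjusted p = 0.016), which had 9 and 5 and 32 and 12 monosome counts in 3-AT. Without monosome 3-AT replicate 1 the values were 1.11 (adjusted p = 0.38) and 0.32 (adjusted p = 0.74). Each of the other libraries except mRNA rich-medium replicate 1 and monosome 3-AT replicate 2 also ended the call of MSE1 when left out, with adjusted p between 0.069 and 0.13. MSF1 further failed without monosome rich-medium replicate 1 (0.67, adjusted p = 0.29) and without mRNA 3-AT replicate 1 (0.95, adjusted p = 0.12).

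Disome counts were next set against monosome counts within each medium, which asks where collided ribosomes were many or few for the ribosomes on a gene. In rich medium 24 of the 35 genes were tested. Of these 4 were higher in disome-seq and 6 were lower, against 8.97% and 8.51% of 3089 genes, and the median was -0.03 for the members and -0.36 for all genes. With library totals 2 were higher and 9 lower, against 7.22% and 16.5% of all genes, and uniquely mapped reads made all 24 lower, as they did 99.9% of all genes. Without either monosome replicate 0 were higher and 1 was lower. Values here are therefore relative to the other genes of the same medium.

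DPS1 (YLL018C), the aspartate enzyme, had 1119 and 1143 monosome RPM and 1316 and 2807 disome RPM (log2 ratio 0.83 ± 0.20, edgeR adjusted p = 0.0014). Its disome replicates differed widely, and without disome replicate 2 the ratio was 0.15 (adjusted p = 0.67). It also failed without either monosome replicate (adjusted p = 0.17 and 0.14). YDR341C had 580.2 and 585 monosome RPM and 829 and 978 disome RPM (0.62 ± 0.21, adjusted p = 0.031).

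CDC60 (YPL160W), the cytosolic leucine enzyme, had 1249 and 1264 monosome RPM and 1901 and 1734 disome RPM (0.54 ± 0.20, edgeR adjusted p = 0.042). YDR341C and CDC60 did not pass without any 1 of the 4 libraries, with adjusted p from 0.23 to 0.37 and from 0.05 to 0.42. MSW1 (YDR268W), the mitochondrial tryptophan enzyme, had 2 and 3 disome counts against 6 and 11 monosome counts (2.57 ± 0.83, adjusted p = 0.022), but it passed the filter only through the disome libraries and so had to be higher there, and nothing is read from its call. It failed without a filter (adjusted p = 0.13) and without disome replicate 1 (adjusted p = 0.24) or 2 (adjusted p = 0.45). The 4 genes higher in disome-seq all turned lower by uniquely mapped reads, at values between -5.52 and -3.79.

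CRS1 (YNL247W) had the fewest disomes for its monosomes of the genes called. It had 448 and 364 monosome RPM and 73.1 and 126 disome RPM, from 3 and 4 disome counts (log2 ratio -2.08 ± 0.45, edgeR adjusted p = 0.00023), and did not pass without disome replicate 1 (-1.87, adjusted p = 0.058). WRS1 followed with 302 and 312 monosome RPM and 146 and 94.6 disome RPM (-1.31 ± 0.44, adjusted p = 0.026), a call that no set of 3 libraries kept (adjusted p from 0.082 to 0.18).

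DED81 had 1275 and 1403 monosome RPM and 731 and 725 disome RPM (-0.88 ± 0.23, edgeR adjusted p = 0.0028). VAS1 had 1561 and 1554 monosome RPM and 951 and 757 disome RPM (-0.85 ± 0.22, adjusted p = 0.003). Both failed when either monosome library was left out, with adjusted p of 0.1 and 0.18 for DED81 and 0.14 in both cases for VAS1, while all values stayed negative. KRS1, the lysine enzyme, and GLN4 were the remaining genes called lower.

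HTS1 in rich medium had 384 and 381 monosome RPM and 463 and 757 disome RPM. The groups did not overlap, but the log2 ratio of 0.63 ± 0.26 did not pass (edgeR adjusted p = 0.081), with a 95% confidence interval of 0.11 to 1.15.

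In 3-AT, 21 genes were tested, all cytosolic. THS1 alone was higher in disome-seq and 8 were lower, against 12.3% higher and 19.3% lower of 2275 genes, and by uniquely mapped reads 0 were higher and 19 lower, against 1.8% and 69.1% of all genes. The medians were -0.79 for the members and -0.33 for all genes. Without disome replicate 1 the count of lower genes was 2, and without disome replicate 2 it was 4.

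THS1 had 995 and 1086 monosome RPM and 3260.4 and 2617 disome RPM. Both disome libraries lay far above both monosome libraries (log2 ratio 1.50 ± 0.25, edgeR adjusted p = 1.2e-05), and the value was -0.10 by uniquely mapped reads. In rich medium the same gene had had 1370.0 and 1298 monosome RPM and 1316 and 1388 disome RPM, which overlapped (0.02 ± 0.20).

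MES1 had 0 disome counts in this medium, which bounds its disome RPM at 4.14-fold or more under its monosome RPM (edgeR adjusted p = 0.001), but it passed the filter only through the monosome libraries. DED81 had 892 and 952 monosome RPM and 51.8 and 218 disome RPM (-2.78 ± 0.54, adjusted p = 0.00011, and -4.23 without disome replicate 2). ILS1 had 660.2 and 713 monosome RPM and 155 and 273 disome RPM (-1.69 ± 0.49, adjusted p = 0.0085). Without disome replicate 1 ILS1 did not pass (adjusted p = 0.12).

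ALA1 had 1020.3 and 1894 monosome RPM and 621 and 273 disome RPM (-1.69 ± 0.42, edgeR adjusted p = 0.0023), and did not pass without disome replicate 1 (-2.58, adjusted p = 0.086) or 2 (adjusted p = 0.15). CDC60, SES1, GRS1 and GUS1, the glutamate enzyme, completed the genes called lower. HTS1, with 292 and 287 monosome RPM and 155 and 54.5 disome RPM, was at -1.44 ± 0.70 and did not pass (adjusted p = 0.12).

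The change of the disome to monosome ratio between the media was tested over all 8 libraries. The ratio was lower in 3-AT for 11 of 21 genes and higher for 2, against 14.8% lower and 2.72% higher of 2871 genes, and it flipped to 18 higher and 0 lower by uniquely mapped reads, where 64.4% of all genes were higher and 0.0348% lower with a median of 4.19 against 3.65 for the members. With library totals 3 were lower and 2 higher, against 6.34% and 6.65%. The median of all genes lay at -0.77 in this fit and at 0.045 with library totals, and the median of the members at -1.34, with MES1 fitted or at its bound. Changes are therefore also given relative to the median of all genes.

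HTS1 changed by -2.55 ± 0.71 on the log2 scale (edgeR adjusted p = 0.0037), which is -1.78 relative to the median of all genes. With library totals the value was -1.72 (adjusted p = 0.11), and without 3-AT disome replicate 2 it was -2.10 (adjusted p = 0.063). Taken as plain counts, HTS1 had 13.3 monosome counts per disome count in rich medium and 32 in 3-AT, where all genes together had 17.1 and 12.5. The ratio of HTS1 thus moved away from that of the whole libraries.

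MES1 went from 14.6 monosome counts per disome count to at least 48.7, and its scaled ratio was at least 8.16-fold lower in 3-AT (edgeR adjusted p = 1.3e-06). This bound, -3.03 on the log2 scale, is not relative to the median of all genes, which was itself -0.77. CDC60 changed by -2.60 ± 0.43 (adjusted p = 1.4e-07) and ALA1 by -2.45 ± 0.45 (adjusted p = 1.9e-06), which are -1.83 and -1.68 relative to the median. These 2 genes kept their calls under every left-out library.

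CRS1 and THS1 went the other way. CRS1 changed by 2.40 ± 0.71 (edgeR adjusted p = 0.007), 3.17 above the median of all genes, on 3 and 4 disome counts in rich medium and 7 and 10 in 3-AT. It failed without rich-medium disome replicate 1 (1.98, adjusted p = 0.13) and without 3-AT disome replicate 2 (1.99, adjusted p = 0.14). THS1 changed by 1.01 ± 0.35 (adjusted p = 0.027), 1.78 above the median. Its call passed only with 3-AT disome replicate 2 left out or with no library left out, and the other adjusted p ranged from 0.065 to 0.25.

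A list of 9 genes whose products act beside the synthetases was read in the same fits. In mRNA, 2 rose and 4 fell, against 37.7% of all genes in each direction. GTF1, a subunit of the mitochondrial amidotransferase that makes Gln-tRNA, rose (log2 change 1.06 ± 0.21, edgeR adjusted p = 2.4e-06), as did CCA1, which adds the CCA end to tRNAs (0.89 ± 0.12, adjusted p = 1.2e-11), and both fell by uniquely mapped reads, at -0.62 and -0.79. ARC1, which binds the MES1 and GUS1 enzymes as a cofactor, fell by 0.89 on the log2 scale, and DTD1, which removes D-amino acids from tRNA, LOS1, a tRNA exporter, and PET112, another amidotransferase subunit, fell as well. The calls of PET112 and DTD1 were lost without 3-AT replicate 2 (adjusted p = 0.13) and 3-AT replicate 1 (adjusted p = 0.17).

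In monosome-seq, CCA1 had 116 and 86.3 RPM in rich medium and 558 and 553 RPM in 3-AT (log2 change 2.43 ± 0.16, edgeR adjusted p = 1.8e-14). GRS2, the paralog of GRS1, had 30.8 and 14.7 RPM in rich medium and 119 and 88.9 RPM in 3-AT (2.13 ± 0.35, adjusted p = 3e-06). Both sets of libraries were apart. GRS1 itself was lower in the same libraries (-0.70 ± 0.12). PET112 fell by 1.44 on the log2 scale (adjusted p = 0.021), and the value was -3.34 without 3-AT replicate 1. It did not pass without rich-medium replicate 2 (adjusted p = 0.057) or 3-AT replicate 2 (-0.70, adjusted p = 0.31).

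The monosome to mRNA ratio rose for GRS2 (1.96 ± 0.40, edgeR adjusted p = 1.6e-05), CCA1 (1.50 ± 0.20, adjusted p = 1.5e-11) and ARC1 (0.88 ± 0.15, adjusted p = 3e-07). ARC1 had 999 and 883 disome RPM against 552 and 621.5 monosome RPM in rich medium (0.70 ± 0.21, adjusted p = 0.012), a call that no set of 3 libraries kept (adjusted p from 0.073 to 0.42). Its disome RPM changed by -1.29 ± 0.53 with 3-AT (adjusted p = 0.021), which failed without rich-medium replicate 1 (adjusted p = 0.051) or either 3-AT replicate (adjusted p = 0.19). The disome to monosome ratio fell with 3-AT for ARC1 (-1.83 ± 0.43, adjusted p = 0.00044). For CCA1 it fell by 4.66 on the log2 scale (adjusted p = 0.00023), from 3 and 6 disome counts to 0 and 2, and not without rich-medium disome replicate 2 (adjusted p = 0.067). Without 3-AT disome replicate 2, which leaves a library at 0, the fitted value was -10.63. Within 3-AT, CCA1 had 682 and 684 monosome RPM and 0 and 109 disome RPM (-3.66, adjusted p = 0.00013, and a fitted -9.72 without disome replicate 2).

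Histidine content was compared with the changes, because histidine is the amino acid withheld. The median share of histidine among codons was 2.09% over the 35 genes and 2.05% over all genes. The cytosolic genes ranged from 1.1% for HTS1, with 6 histidine codons of 546, to 2.93% for MES1, with 22 of 751. HTS1 therefore had the lowest histidine share of the cytosolic genes. Genes do not replicate each other and here share the same libraries. Across them, Spearman's rho between histidine share and log2 change was -0.08 in monosome-seq (26 genes), 0.32 in disome-seq (19 genes) and 0.39 for the disome to monosome ratio (21 genes). Over all genes tested it was 0.17, 0.19 and 0.06. Only 5 members had 10 or more counts in every library of the last fits, and these values are a description. MES1, with the highest share of the cytosolic genes, and HTS1, with the lowest, both fell in disome-seq. They were among 6 of the 19 genes that passed its filter only through the rich-medium libraries and so had to be lower. Nothing about histidine is therefore read from these falls, and the rho of 0.32 carries the same selection.

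The control library gave positions of the codon in the ribosomal A site as deposited. The cytosolic genes had between 41 footprints, for HTS1, and 463, for GUS1, and the mitochondrial genes between 1 and 9. HTS1 had 102 RPM (95% Wilson interval 75.2 to 139, counting error only), and its 41 footprints lay at 23 positions with a maximum of 5 at codon 189. In HTS1, 0 of 41 footprints lay before codon 21, the second in-frame methionine, where an even spread would give 1.5. In VAS1, 2 of 152 footprints lay before its second methionine at codon 47, where an even spread would give 6.33. Both genes are known to start at this later methionine for the cytosolic protein. The counts an even spread would give are small and the library is 1 without replicate, so which start was used cannot be read from them.

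The share of footprints at the most covered codon differed between these genes. In TYS1, the tyrosine enzyme, 34 of 144 footprints (23.6%, Wilson interval 17.4 to 31.2) had codon 234 in the A site, and in KRS1 67 of 426 (15.7%, interval 12.6 to 19.5) had codon 91. THS1 had 31 of 208 (14.9%, interval 10.7 to 20.4) at codon 198, and YDR341C 24 of 163 (14.7%, interval 10.1 to 21.0) at codon 126. At the other end, DED81 had at most 8 of 177 (4.52%) at any codon. The median over the 21 genes was 8.95%, against 13.1% over 956 genes with 40 or more footprints. The quartiles of those 956 genes were 9.33% and 19.2%. KRS1, THS1 and YDR341C lay between them, and TYS1 lay above. The most covered position of 6 genes is shown 5′ to 3′ with the A-site codon in capitals, so that the codon before it can be read (R64 assembly, RefSeq).
TYS1: gcctctgatccgAATtcaaaaatcgac
KRS1: actcacgaaccaAATccatacccacac
YDR341C: cttgtcatcccaGATatcttaaccaga
MES1: gatgcttctccaGAAccaaaatattct
VAS1: gatggctctccaAAGactcctaaggaa
THS1: gaatctccagaaAGAaccgtctcccaa
These stretches lie at chrVII:866807-866833 (TYS1, minus strand), chrIV:525698-525724 (KRS1, plus strand), chrIV:1153237-1153263 (YDR341C, minus strand), chrVII:1020717-1020743 (MES1, minus strand), chrVII:672396-672422 (VAS1, plus strand) and chrIX:213078-213104 (THS1, plus strand), all within the single coding exon of each gene. In 8 of the 21 cytosolic genes (38.1%) the codon before the A-site codon at the most covered position encoded proline, as in all of those shown but THS1, against 22.7% of 943 genes. Over all footprints of the 21 genes the share with proline in that place was 14.6% (Wilson interval 13.5 to 15.8), and it was 13.9% over the footprints of all genes with 40 or more. Proline made up 4.46% of the codons of the 21 genes. This feature was singled out after the positions had been seen, and the stretches shown hold it more often than the 21 genes do. VAS1 is among those shown with 11 of 152 footprints (7.24%) at its position. DPS1, with 37 of 302 (12.3%) and GAA before the A-site codon, is not.

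**Figure D3:**
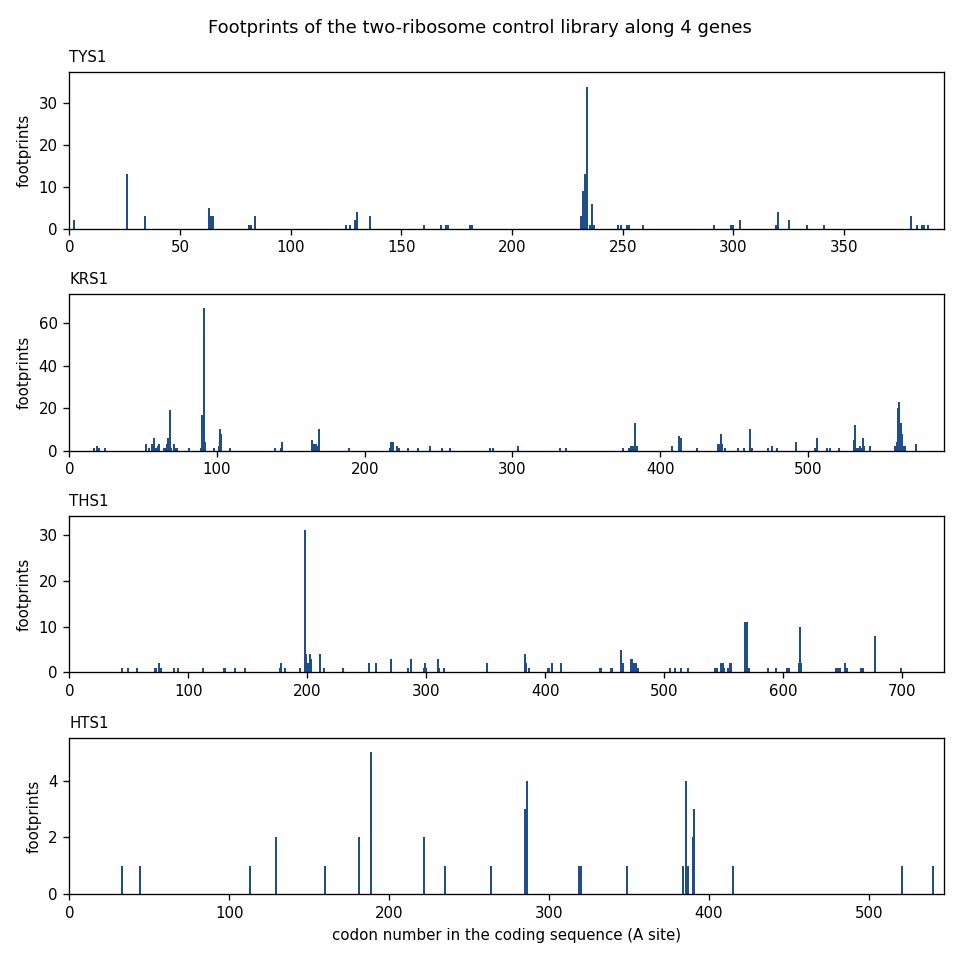
Footprints of the control library from transcripts bound by 2 ribosomes, by codon number in the A site along TYS1, KRS1, THS1 and HTS1, with the number of footprints on the vertical axis of each panel. The most covered positions were codon 234 of TYS1 with 34 footprints, codon 91 of KRS1 with 67 and codon 198 of THS1 with 31. No codon of HTS1 had more than 5 of its 41. Of these genes only TYS1, at 23.6%, had a share above the upper quartile of 19.2% over 956 genes.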

How the data were processed

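The deposited files gave counts of reads per gene for 2 replicates of each assay and medium, and footprint counts per A-site codon for 1 control library. The authors trimmed adapters with cutadapt 1.16, removed rRNA reads with Bowtie 1.2.2, aligned the rest with TopHat2 2.1.1 and kept unique alignments. They describe counting each combination of length, sequence and molecular identifier once, but whether the deposited counts were made so is not given in the sources used here. The deposited tables were named for lengths of 55 to 65 nt (disome), 20 to 30 nt (monosome) and 28 to 29 nt (mRNA and control). Their totals exceeded the uniquely mapped reads listed for 6 of the 12 libraries, so the 2 sets of numbers were not made in the same way. Coding sequences came from the R64 assembly, which matched 5689 of the 5694 genes.

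Counts were tested with edgeR 4.0.16 (R 4.3.3; filterByExpr, TMM, quasi-likelihood F test, Benjamini-Hochberg adjustment over all genes tested, threshold 0.05) in 7 comparisons. Simple comparisons used 4 libraries, changes of a ratio used 8 with an interaction term. A standard error is the log2 change divided by the square root of F. Intervals are at 95%, and the limit for 0 counts is 3 counts. Fits were tested on simulated data. Alternatives were other library sizes (totals without TMM, DESeq2 size factors, uniquely mapped reads), no filter, DESeq2 1.42.0, a replicate block and each library left out. In the latter a lone library was assumed to vary like the other groups.

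All 35 genes are accounted for. HTS1 is given in each comparison, and beside it the genes called, or where more than 8 were called the 4 largest rises and 4 largest falls, with called genes of the list of 9. Other genes named were chosen after their values were seen. The members and lists were chosen with earlier results of these data known.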

Additional observations from a re-analysis of the deposited data

Results flagged for a closer look

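The 20 values below are changes of a ratio with 3-AT whose interaction term passed an adjusted p of 0.05 in edgeR, so that an effect differed between 2 assays. For the monosome to mRNA ratio the log2 changes were -0.52 for HTS1, -1.65 for ILS1, -0.96 for CRS1, -0.84 for VAS1 and -0.72 for YDR341C. They were 1.55 for MSE1, 1.15 for MSF1, 0.60 for FRS1 and 0.52 for GRS1 among the synthetase genes, and 1.96 for GRS2, 1.50 for CCA1 and 0.88 for ARC1 among the other genes. For the disome to monosome ratio they were -2.55 for HTS1, -2.60 for CDC60, -2.45 for ALA1, 2.40 for CRS1, 1.01 for THS1, -1.83 for ARC1 and -4.66 for CCA1. MES1 had a fitted value of -9.49, which depends on the prior count because its 3-AT disome libraries were both at 0. Groups held 2 libraries, so no library could be tested as standing apart from its group.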

How the results depend on the processing

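With DESeq2 size factors 63 named values kept their direction and call and 1 no longer passed. Direction depended most on library size. With uniquely mapped reads as library sizes, members called higher and lower were 0 and 35 in mRNA-seq, where 84.4% of all genes were lower. They were 12 and 0 in disome-seq and 24 and 0 for the monosome to mRNA ratio, against 64.4% and 80.8% of all genes higher. For disome versus monosome they were 0 and 24 in rich medium and 0 and 19 in 3-AT, against 99.9% and 69.1% lower. For the change of the disome to monosome ratio they were 18 and 0, against 64.4% higher. Under the same setting the following log2 values reversed. In mRNA-seq they were -1.248 for MSF1, -1.353 for YDR341C, -0.618 for GTF1 and -0.791 for CCA1. In disome-seq they were 1.316 for HTS1, 1.146 for ILS1, 1.452 for DED81 and 3.253 for ARC1. For the monosome to mRNA ratio they were 1.307 for HTS1, 0.182 for ILS1, 0.866 for CRS1, 0.983 for VAS1 and 1.105 for YDR341C. For disome versus monosome in rich medium they were -5.266 for HTS1, -3.789 for MSW1, -4.918 for DPS1, -5.363 for YDR341C, -5.518 for CDC60 and -5.403 for ARC1, and in 3-AT -0.101 for THS1. For the change of the disome to monosome ratio they were 2.331 for HTS1, 2.32 for CDC60, 2.471 for ALA1, 3.167 for ARC1 and 0.346 for CCA1. These library sizes move all genes of a comparison together and were smaller than the table totals in 6 of 12 libraries, so they do not describe these counts.

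With library totals, members called higher were 5 in mRNA-seq and 2 in monosome-seq, against 48.3% and 40.5% of all genes. They were 1 in disome-seq and 2 for disome versus monosome in rich medium, against 43.9% and 7.22%. Members called lower were 14 in mRNA-seq and 3 for the change of the disome to monosome ratio, against 27.5% and 6.34%. DESeq2 called 1 member higher in mRNA-seq, where 1582 of 5290 genes were higher. It called 2 higher for the monosome to mRNA ratio, against 566 of 5160 genes. For the change of the disome to monosome ratio it called 7 lower, against 236 of 2871 genes. Without a filter 1 member was higher for disome versus monosome in rich medium, against 220 of 5278 genes. For the change of the disome to monosome ratio 1 was higher, against 46 of 5398 genes. The cause of these differences was not tested.

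The labels linked replicates of different groups only by a number, and whether libraries of the same number came from the same culture is not known. The correlation of their deviations lay between -0.025 and 0.018, which does not settle this where disome counts are few. With the replicate number as a block, 1 member was higher and 3 were lower for disome versus monosome in rich medium, against 4 and 6 without it. Of 3089 genes, 218 were higher and 186 lower there. For the change of the disome to monosome ratio 1 member was higher, against 38 of 2871 genes. No other count of calls under the block moved by over 1.5 times.

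With 1 library left out, members called higher ranged from 1 to 2 in mRNA-seq, 0 to 1 in monosome-seq, 0 to 1 in disome-seq, 1 to 4 for the monosome to mRNA ratio, 0 to 1 for disome versus monosome in rich medium and 0 to 1 for the change of the disome to monosome ratio, where every library left out lowered the count. Members called lower ranged from 7 to 13 in disome-seq, 1 to 6 for disome versus monosome in rich medium and 2 to 7 in 3-AT. The rho of histidine share over the 5 members with 10 or more counts in every library was 0.8 for disome-seq and 0.6 for the disome to monosome ratio. This minimum keeps only members whose disome counts stayed high in 3-AT, so nothing is read from these 2 values. In monosome-seq 22 members met it, with a rho of -0.05. The shorter Gcn4 sequence was present before 12 members. Disome values rest on few counts and groups on 2 libraries, so that absence of a call does not show absence of a difference.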
